A study of Mus musculus with 6 samples.

Results

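The 10 genes described here encode proteins of the lipid droplet surface, a lipase that works on it with the inhibitor of that lipase, and the nuclear receptor PPARγ: Cidea, Cideb, Cidec, Plin1, Plin2, Plin4, Plin5, G0s2, Pnpla2 and Pparg. They were chosen by symbol, and each has a row among the 17460 gene symbols of the deposited table. Whole livers of 6 C57BL/6 mice were sequenced after polyA selection, 3 control and 3 Blnc1 LKO (liver-specific knockout), all aged 9 months and fed a NASH diet rich in fructose, trans fats and cholesterol for 24 weeks. To make LKO mice, Cas9 transgenic mice received by tail vein an adenovirus that carries a pair of sgRNAs against the lncRNA Blnc1, and for the high-fat diet experiment of the same study the control mice were Cas9 transgenic mice given a GFP adenovirus. The labels of the sequenced control livers say only control. Adenovirus given this way reaches mainly hepatocytes, so other liver cells can keep the gene. Blnc1 itself was not analysed here, and its loss in these livers was not checked. In whole liver, fewer cells of a type and less RNA per cell cannot be told apart.

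A lipid droplet is a store of triglycerides and cholesterol esters under a single layer of phospholipids, and the proteins on that layer set how fast the store grows and how fast it is broken down. CIDE proteins gather where droplets touch and pass lipid from the smaller droplet to the larger, perilipins coat the surface and control the access of lipases, and ATGL, the product of Pnpla2, starts the breakdown of triglycerides. PPARγ is scarce in healthy liver and plentiful in fat tissue, and in fatty mouse liver it is known to drive genes of fat uptake and storage, among them Cidec and Plin2.

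The liver labelled Blnc1 LKO replicate 1 stood apart from the other 5. Among 7831 genes with a mean normalized value of at least 1000, 34.0% had their highest value in it, against 10.4% to 19.0% in each other liver. The lowest value was in this liver for 23.3%, in LKO replicate 2 for 28.3% and in each other liver for 8.96% to 16.7%. Of the 9 droplet genes with enough reads to test, 7 were lowest in this liver, so each group difference of the 9 is given with and without it. As the liver was chosen for these low values, leaving it out must raise the LKO mean of those 7. It also had the highest summed level of hepatocyte markers, 7.07e+06 against at most 6.46e+06 in a control liver. Alb alone held 4.65e+06 of this sum. In this liver Apoa1 and Cps1 were within the control range, and the other hepatocyte markers were above it. The summed level of stellate cell markers was lowest there, at 23490. It was 23490 to 28659 over the LKO livers and 28465 to 32049 over the control livers. Of these 7 markers, 3 (Rgs5, Col1a1 and Acta2) were below every control liver in every LKO liver, so their low level was not particular to replicate 1. Over all genes 5.28% were so. By mean log2 level 5 of the 7 were lower in LKO livers and 2 (Lrat and Reln) were higher. The part of these differences in the results was not tested. Reads on the listed genes numbered 69457633 to 79503092 in control and 65384969 to 89350181 in LKO livers. LKO replicate 1 had the fewest reads of all livers and LKO replicate 3 the most.

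The sequences before the start sites of 3 of the genes are printed here, because Cidec had the largest difference between groups, Plin2 was the most abundant of the genes, and Pparg encodes the receptor that is known to act on both. They come from RefSeq (GRCm38.p6), run from 250 bases before to 50 after an annotated start, and read 5′ to 3′ on the strand of the gene. Capitals mark AGGTCA (the half-site of nuclear receptors such as PPARγ and LXR), CACGTG (an E-box), CCAAT and TATAAA, on either strand. Cidec has 2 such starts, at chr6:113435711-113436010 and chr6:113434715-113435014 on the − strand. Plin2 lies at chr4:86670010-86670309 on the − strand. Pparg has 3 windows on the + strand, and the one printed, at chr6:115362099-115362398, is the only one of them with both a half-site and TATAAA. Of the others, chr6:115360894-115361193 holds a half-site and chr6:115421816-115422115 holds CCAAT but no half-site.
Cidec, first window: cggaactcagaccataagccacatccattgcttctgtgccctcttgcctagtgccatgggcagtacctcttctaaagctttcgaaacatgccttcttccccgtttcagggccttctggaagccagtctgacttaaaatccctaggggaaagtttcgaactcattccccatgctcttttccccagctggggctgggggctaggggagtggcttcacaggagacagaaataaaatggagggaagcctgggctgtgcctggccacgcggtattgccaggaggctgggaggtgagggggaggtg
Cidec, second window: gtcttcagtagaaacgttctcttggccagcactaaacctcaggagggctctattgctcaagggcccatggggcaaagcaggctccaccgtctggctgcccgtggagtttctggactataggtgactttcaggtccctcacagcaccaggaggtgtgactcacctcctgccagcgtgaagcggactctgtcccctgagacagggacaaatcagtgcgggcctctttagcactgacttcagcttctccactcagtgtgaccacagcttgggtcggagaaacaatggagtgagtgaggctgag
Plin2: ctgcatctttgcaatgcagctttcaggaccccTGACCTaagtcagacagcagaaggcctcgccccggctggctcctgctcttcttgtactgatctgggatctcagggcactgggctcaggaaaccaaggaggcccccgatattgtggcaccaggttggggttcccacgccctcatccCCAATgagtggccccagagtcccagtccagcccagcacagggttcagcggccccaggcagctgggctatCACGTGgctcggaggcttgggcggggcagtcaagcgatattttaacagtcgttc
Pparg: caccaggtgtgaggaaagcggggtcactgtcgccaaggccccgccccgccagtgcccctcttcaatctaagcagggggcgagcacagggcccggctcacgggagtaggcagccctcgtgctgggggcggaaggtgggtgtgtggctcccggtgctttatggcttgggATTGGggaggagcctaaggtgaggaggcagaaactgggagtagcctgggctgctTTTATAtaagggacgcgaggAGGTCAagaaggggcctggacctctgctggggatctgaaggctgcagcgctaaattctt

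None of the marked letters occur in either Cidec window. With the first base of the transcript as position 1, the Plin2 window holds a half-site from position −218, on the opposite strand, and an E-box from position −4 that spans the start. The Pparg window holds a half-site from position −9. It also holds the letters TATAAA on the opposite strand from position −29, within TTTATATAAG on the strand of the gene. The starts of the 9 genes outside Cidea gave 13 windows in all, and 5 of these held AGGTCA on either strand (1 in Plin2, 2 each in Pparg and Plin5), where 16.3% of 32851 mouse windows of this length do. A full PPAR element of 2 half-sites spaced by 1 base (AGGTCANAGGTCA) was in 0 of the 13 and in 0.0396% of all windows, and the LXR form with 4 spacer bases (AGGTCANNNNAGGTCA) in 0 and in 0.0152%. The E-box was in 1 of 13 against 7.15%, the sterol element TCACNCCAC in 0 against 1.24%, the C/EBP palindrome TTGCGCAA in 0 against 0.183%, the cAMP element TGACGTCA in 0 against 1.79%, the GC box GGGCGG in 8 against 35.7%, CCAAT in 5 against 37.4% and TATAAA in 2 against 13.6%. Only these exact letters were searched, so imperfect forms of the elements were not counted. At shares as low as those of the PPAR and LXR repeats, 0 of the 13 says nothing about these genes. Neighbouring windows of Plin5 overlap each other, and elements outside the windows were not analysed here.

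None of the 9 tested droplet genes differed between control and Blnc1 LKO livers past the test. Values are the read numbers of a gene after each liver was scaled by its own size factor, and the test was limma on log2(value + 1) with Benjamini-Hochberg adjustment over 17297 genes at 0.05. Over all genes tested, 0.00578% passed, which is 1 gene, so a count of 0 among 9 is near the background. At an unadjusted p under 0.05 limma had 0 of the 9 against 5.68% of all genes, and DESeq2 on the recovered reads had 0 of the 9 at its adjusted threshold against 0.486%. The other tools run on those reads, edgeR and voom, called 0 of the 9 as well. For each of the 9 the groups overlapped, where 10.6% of all genes had every LKO liver on 1 side of every control liver and 5.28% had every LKO liver below. The mean log2 level was lower in LKO for 6 of the 9 and for 50.4% of all genes, and the median log2 fold change of the 9 was −0.12 against −0.00099 over all genes. Both summaries include LKO replicate 1, where 7 of the 9 were lowest, and were not computed without it. They are therefore no evidence of a lowering shared by the LKO livers.

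**Figure D1:**
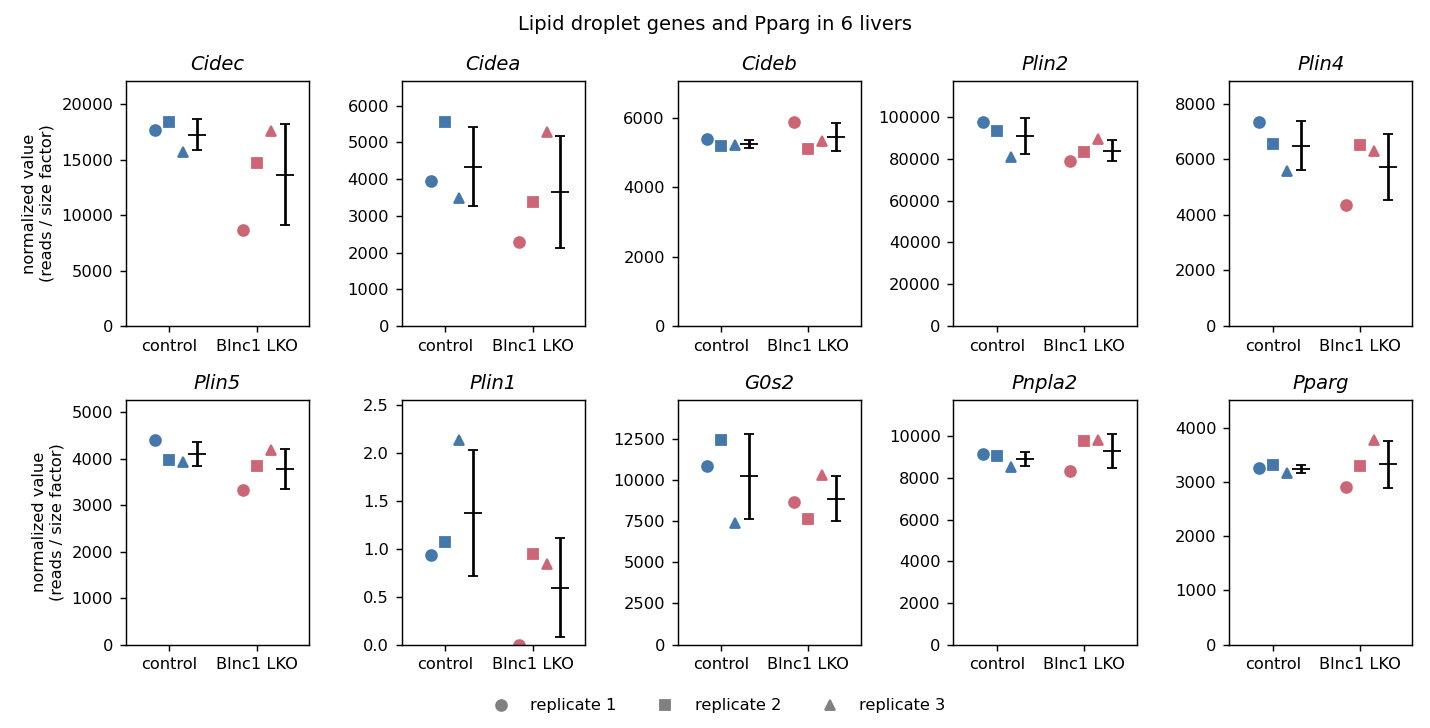
Normalized value (reads over the size factor of the liver) of each gene in the 3 control (blue) and 3 Blnc1 LKO (red) livers, each panel on its own axis from 0; circles, squares and triangles are replicates 1, 2 and 3, and the bar gives the mean with the SD of the 3 livers. LKO replicate 1 holds the lowest value of Cidec, Cidea, Plin2, Plin4, Plin5, Pnpla2 and Pparg, and Plin1 is at 0 to 2 reads in every liver.

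Cidec, also called Fsp27, is the CIDE protein that makes the single large droplet of white fat cells and appears in fatty liver. Control livers had normalized values of 17636, 18399 and 15675, and LKO livers had 8696, 14702 and 17562. The first 2 LKO livers lay below every control liver, and the third lay between the control values. The means were 17237 ± 1406 and 13653 ± 4525 (SD, n = 3 each), which gives a log2 fold change of −0.39 with a 95% interval of −0.89 to 0.11 (standard error 0.22, adjusted p = 0.930, limma). In folds, the interval runs from 0.539 to 1.08 times the control level. Without LKO replicate 1 the log2 fold change was −0.10, and without LKO replicate 3 it was −0.60, with no call in limma either way. Without LKO replicate 3 the unadjusted p of Cidec was 0.0159 in limma, and the adjustment was not passed. Cidec lies at chr6:113424634-113435760 on the − strand of GRCm38. The table gives it 1 value, so transcripts from its different starts are not separated.

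Cidea, which in mice marks brown fat and also appears in fatty liver, had normalized values of 3963, 5561 and 3497 in control and 2286, 3391 and 5295 in LKO livers. Its spread was the widest of the group, with the highest LKO liver at 2.32 times the lowest and the highest control liver at 1.59 times the lowest. As for Cidec, LKO replicates 1 and 2 were below every control liver and replicate 3 was within their range. The log2 fold change was −0.30 (95% interval −0.94 to 0.34, standard error 0.28, adjusted p = 0.973, limma). Without LKO replicate 1 it was −0.01 and without control replicate 2 it was −0.11, while without LKO replicate 3 it was −0.61. Cideb, the CIDE protein of normal hepatocytes, which takes part in the loading of VLDL with lipid, was by contrast even across livers. It had 5386, 5170 and 5209 in control and 5879, 5098 and 5317 in LKO livers, where LKO replicate 1 was the highest of all 6 and LKO replicate 2 the lowest. Its log2 fold change was 0.05 (95% interval −0.098 to 0.19, adjusted p = 0.978, limma). It was −0.01 without LKO replicate 1 and 0.09 without LKO replicate 2. Cideb lies at chr14:55754050-55758458 on the − strand, and 1136 of its 1488 exon bases (76.3%) are also exon of Nop9 on the other strand. The library kit does not mark strand, so reads of the 2 genes cannot be told apart there.

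Measured per length of exon (RPKM), Cidec made up 55.6 ± 1.55% of the summed CIDE level in control livers and 50.7 ± 6.01% in LKO livers (SD, n = 3 each). The lowest share, 43.8%, was in LKO replicate 1, and the other LKO livers had 55.1% and 53.2%. These shares, and the ratios to Cideb, carry the limit that 76.3% of the Cideb exon bases are shared with Nop9. The ratio of the Cidec value to the Cideb value within a liver, which does not depend on the scaling between livers, was 3.27, 3.56 and 3.01 in control and 1.48, 2.88 and 3.30 in LKO livers. These overlapped, with a log2 difference of −0.44 (exact permutation test, two-sided, p = 0.3, adjusted p = 0.8 over 6 ratios, where 0.1 is the smallest p that 3 livers against 3 allow). The difference was −0.085 without LKO replicate 1 and −0.66 without LKO replicate 3. For Cidea to Cideb the ratio was 0.828 ± 0.217 in control and 0.683 ± 0.304 in LKO livers (SD, n = 3 each, exact permutation p = 0.4, adjusted p = 0.8). Cidea and Cidec varied together across the livers, with a Pearson r of 0.90 over 6 livers (permutation p = 0.00278, adjusted p = 0.1 over 36 pairs) and a Spearman rho of 0.94 (permutation p = 0.0167, adjusted p = 0.3). Without control replicate 2 and LKO replicate 1, the livers farthest from the median of Cidea, r was 0.78. Of the 36 pairs among the 9 genes, 8 had an unadjusted p of r under 0.05 and 0 passed the adjustment. The share among all pairs of genes was not computed, and LKO replicate 1 was lowest for 7 of the 9. The count of 8 is therefore not a result about these genes. Without the 2 livers farthest from the median of the gene named first, r of the 8 pairs was 0.39 (Cidec and Plin5) to 0.86 (Cidec and Plin2).

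Plin2, or adipophilin, is the main droplet coat of hepatocytes and follows their fat content. Normalized values of Plin2 reached 97730, 93436 and 81098 in control and 79205, 83148 and 89340 in LKO livers. One LKO liver lay below every control liver and the other 2 lay within the control range. The log2 fold change was −0.11 with a 95% interval of −0.33 to 0.10 (standard error 0.094, adjusted p = 0.971, limma). It was −0.07 without LKO replicate 1, −0.05 without control replicate 1 and −0.19 without control replicate 3. Plin2 was the most deeply read of the 10 genes, with a counting SD of 0.0049 beside a spread within groups of 0.117 on the log2 scale. Plin2 lies at chr4:86648386-86670060 on the − strand of GRCm38.

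Plin5, the perilipin of tissues that burn fat, which ties droplets to mitochondria, had 4394, 3976 and 3922 in control and 3323, 3835 and 4189 in LKO livers. Its LKO replicates 1 and 2 were below every control liver and replicate 3 was not. Plin5 had a log2 fold change of −0.12 (95% interval −0.32 to 0.082, adjusted p = 0.968, limma). It was −0.03 without LKO replicate 1, −0.07 without control replicate 1 and −0.20 without LKO replicate 3. Plin4, a perilipin of fat tissue that coats small new droplets, had 7341, 6542 and 5585 in control and 4339, 6516 and 6306 in LKO livers. Only LKO replicate 1 was outside the control range of Plin4. The log2 fold change was −0.20 (95% interval −0.56 to 0.16, adjusted p = 0.971, limma). It was −0.01 without that liver and −0.10 without control replicate 1, and −0.30 without control replicate 3 or without LKO replicate 2. These neighbouring genes lie on the − strand of chromosome 17, Plin4 at chr17:56100591-56109803 and Plin5 at chr17:56111601-56117596.

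Plin1 (chr7:79720218-79732903, − strand), the perilipin of mature fat cells, was at 0 to 2 reads in every liver, below the limit of 3 reads in both groups, so no fold change is given and it was not among the genes tested. Of the adipocyte markers, Adipoq and Retn, which like Plin1 define mature fat cells, were at 0 to 5 and 0 to 3 reads, and Slc36a2 at 0 to 7. Tusc5 was at 31 to 60 reads. By mean log2 level 5 of the 6 markers in the table were higher in LKO livers and 1 (Tusc5) was lower. Cfd had a log2 fold change of 0.87 (unadjusted p = 0.0231, adjusted p = 0.840, limma), with overlap. The summed level of the 6 adipocyte markers in the table was 1127 to 2266 in control and 2206 to 2918 in LKO livers, and nearly all of it came from Cfd and Adrb3. Among the perilipins measured, Plin2 held 89.3 ± 0.38% of the summed per-length level in control livers and 89.5 ± 0.92% in LKO livers (SD, n = 3 each). The ratio of Plin2 to Plin5 was 22.1 ± 1.41 and 22.3 ± 1.36, and that of Plin4 to Plin2 was 0.0713 ± 0.0033 and 0.0679 ± 0.0120 (SD, n = 3 each). Both ratios overlapped between groups (exact permutation p = 0.9 for each, adjusted p = 0.9).

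G0s2 is the inhibitor that binds ATGL and holds back the breakdown of droplet triglycerides. It had normalized values of 10884, 12417 and 7379 in control and 8682, 7616 and 10314 in LKO livers. Its lowest value of all was in control replicate 3, and every LKO liver lay within the control range. The log2 fold change was −0.18 with a 95% interval of −0.60 to 0.23 (standard error 0.18, adjusted p = 0.973, limma), and −0.17 without LKO replicate 1. It was −0.03 without control replicate 2, −0.08 without LKO replicate 2 and −0.12 without control replicate 1. It was −0.30 without LKO replicate 3 and −0.40 without control replicate 3, where the unadjusted p was 0.0144 with no call after adjustment. G0s2 lies at chr1:193272161-193273217 on the − strand, within the span of Lamb3 and sharing no exon base with it.

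Pnpla2, which encodes ATGL itself (chr7:141455198-141460743, + strand), had 9135, 9038 and 8526 in control and 8346, 9754 and 9806 in LKO livers. Replicates 2 and 3 of the LKO group were above every control liver and replicate 1 was below. The log2 fold change was 0.06 (95% interval −0.10 to 0.23, adjusted p = 0.976, limma), and 0.14 without LKO replicate 1, where the unadjusted p was 0.0301 and the adjustment was not passed. It was 0.02 without LKO replicate 2 or without LKO replicate 3, and 0.03 without control replicate 3. The ratio of G0s2 to Pnpla2, the inhibitor to its lipase, was 1.19, 1.37 and 0.865 in control and 1.04, 0.781 and 1.05 in LKO livers. These values overlapped, with a log2 difference of −0.24 (exact permutation p = 0.4, adjusted p = 0.8). Without control replicate 2 it was −0.098, without LKO replicate 2 it was −0.10, and without control replicate 3 it was −0.43.

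Pparg lies at chr6:115360951-115490399 on the + strand, and its isoforms, which start at different promoters, share 1 value in the table. The control livers had normalized values of 3255, 3321 and 3169, and the LKO livers 2909, 3299 and 3772. Control livers were close together, and the LKO livers lay below, within and above them. The means were 3248 ± 76.2 and 3327 ± 433 (SD, n = 3 each), for a log2 fold change of 0.03 with a 95% interval of −0.18 to 0.23 (standard error 0.089, adjusted p = 0.994, limma). In folds this interval reaches from 0.885 to 1.17 times the control level. The value was 0.12 without LKO replicate 1, 0.04 without control replicate 2, 0.01 without control replicate 3 and −0.07 without LKO replicate 3. For Pparg to Ppara, the PPAR of fat oxidation in hepatocytes, the ratio of the values was 0.0988 ± 0.0016 in control and 0.0960 ± 0.0166 in LKO livers (SD, n = 3 each, exact permutation p = 0.9, adjusted p = 0.9).

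**Figure D2:**
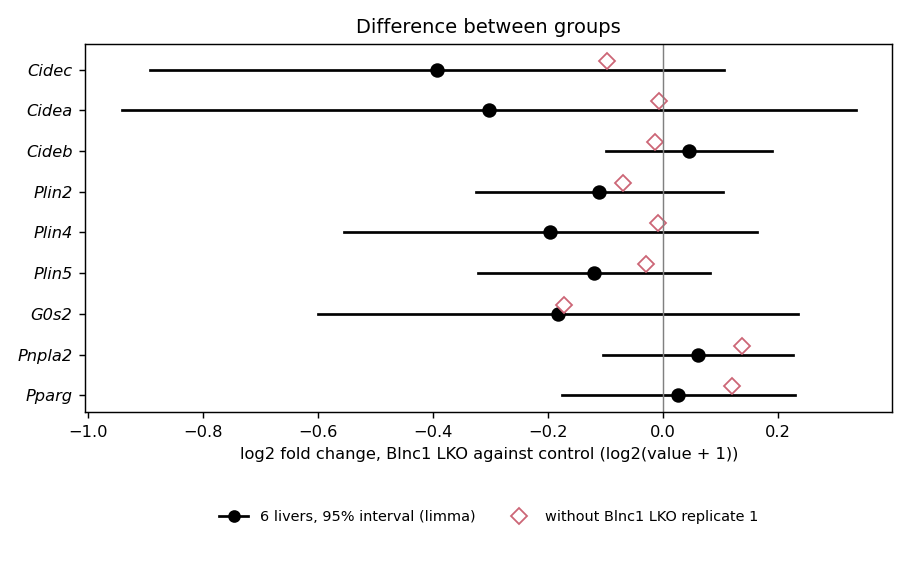
Log2 fold change of Blnc1 LKO against control on the log2(value + 1) scale for the 9 genes tested; black points and lines give the limma estimate from 6 livers with its 95% interval, and open diamonds the estimate without LKO replicate 1. Every interval includes 0, and without that liver Cidec moves from −0.39 to −0.10, Cidea from −0.30 to −0.01 and Plin4 from −0.20 to −0.01. That liver was chosen for its low values of these genes, so the direction of this move was set in advance. Without LKO replicate 3, which is not drawn, they move the other way, to −0.60, −0.61 and −0.28.

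The spread within a group was wide for most of these genes. Its SD on the log2 scale was 0.494 for Cidea, 0.382 for Cidec, 0.317 for G0s2 and 0.270 for Plin4, and 8 of the 9 exceeded the median of 0.0822 over the 7831 genes with a mean value of at least 1000. The exception was Cideb at 0.0779. Counting reads gives an SD of at most 0.025 for any of the 9. Against the control mean, LKO replicate 1 was lower by 0.98 for Cidec, 0.90 for Cidea, 0.57 for Plin4 and 0.30 for Plin5 on the log2 scale, while Cideb was higher there by 0.16. In LKO replicate 3, Cidea and Pparg were above the control mean by 0.32 and 0.22. The largest deviations of control livers were those of G0s2 (−0.44 in replicate 3) and Cidea (0.39 in replicate 2).

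**Figure D3:**
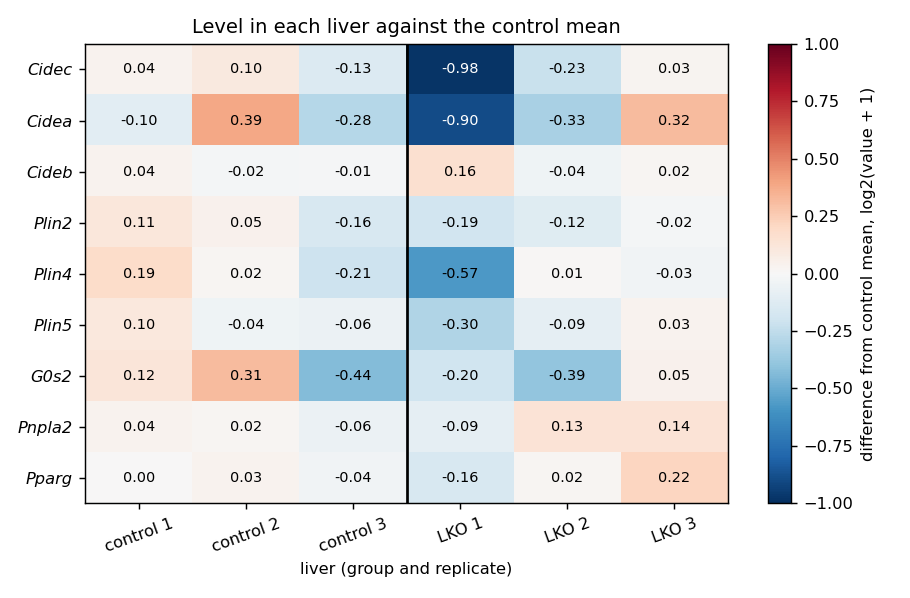
Difference of each liver from the control mean on the log2(value + 1) scale, with the 9 genes as rows and the 6 livers as columns (red above, blue below, the line parts the groups). The darkest cells are those of Cidec (−0.98), Cidea (−0.90) and Plin4 (−0.57) in LKO replicate 1.

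Levels of different genes were compared as RPKM, the recovered reads per kb of exon scaled for the total reads of the liver, with exon lengths from GENCODE release M21. In control livers the RPKM of Plin2 was highest at 348 ± 34.7, followed by G0s2 at 158 ± 40.7 and Cidec at 125 ± 10.8 (SD, n = 3 each). The middle of the order was Cidea at 52.4 ± 13.3, Cideb at 47.5 ± 1.12, Pnpla2 at 39.7 ± 1.65 and Plin5 at 26.4 ± 1.73, and the lowest tested were Plin4 at 15.1 ± 2.11 and Pparg at 14.8 ± 0.42. Plin1 was at most 0.0061 in any liver. The RPKM of Cideb, and so its place beside Cidea, carries the limit of the exon bases shared with Nop9. Nearly every gene was above the next in all 6 livers, and the exceptions were Cidea above Cideb in 2 livers and Plin4 above Pparg in 3, so these neighbours are not separated by their spread. In LKO livers the RPKM was 321 ± 27.2 for Plin2, 136 ± 19.4 for G0s2, 99.3 ± 34.8 for Cidec and 15.1 ± 2.27 for Pparg (SD, n = 3 each).

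**Figure D4:**
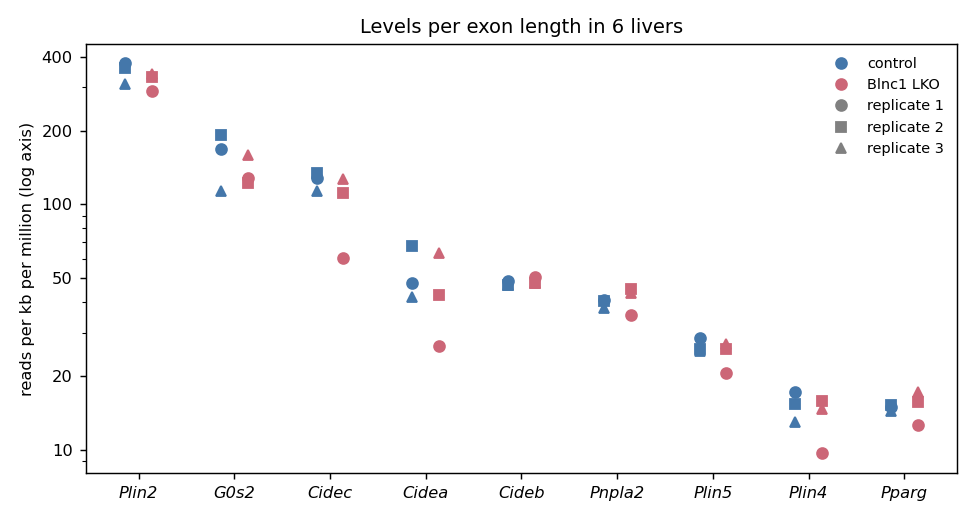
Level per exon length (RPKM, log axis) of the 9 tested genes in each liver, ordered by the control mean, with control in blue and Blnc1 LKO in red and the marker shape giving the replicate. Plin2 lies above every other gene in all 6 livers, while Cidea and Cideb, and Plin4 and Pparg, overlap.

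Other genes of droplet assembly, lipolysis and the PPARγ pathway were taken from 4 lists of 59 genes, all tested. None passed limma over all genes. At an unadjusted p under 0.05 there were 6 (3 higher and 3 lower), where 5.68% of all genes are, and 6 did not overlap between groups (3 on each side), where 10.6% of all genes do not, so neither count is a result about the lists. Their median log2 fold change was 0.01. Among 15 genes of droplet assembly and other coat proteins, 7 were higher and 8 lower. Acsl3, which activates fatty acids on new droplets, had 3325 ± 568 in control and 2484 ± 245 in LKO livers without overlap (SD, n = 3 each, log2 fold change −0.41, adjusted p = 0.745, limma). Bscl2, or seipin, which shapes new droplets at the endoplasmic reticulum, had 3523 ± 116 and 3873 ± 109, also without overlap (0.14, adjusted p = 0.842, limma). Hsd17b11, a droplet-bound dehydrogenase, had 21927 ± 996 and 26152 ± 3954, with overlap (0.24, adjusted p = 0.873, limma). It was 0.16 without LKO replicate 3 and 0.37 without LKO replicate 2.

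Of the 10 lipases and their regulators, 8 had a higher and 2 a lower mean log2 level in LKO livers, with 0 past limma. Ces1g, a carboxylesterase of hepatocytes, had 19258 ± 2112 in control and 23876 ± 3516 in LKO livers (SD, n = 3 each, log2 fold change 0.31, adjusted p = 0.840, limma), and the near-identical copies of the Ces1 family leave its count uncertain. Without LKO replicate 1 its log2 fold change was 0.19. Lipe, hormone-sensitive lipase, which acts after ATGL, had 1295 ± 198 and 1528 ± 127 (0.25, adjusted p = 0.891, limma), and 0.12 without control replicate 3. For Lipa, the lysosomal acid lipase, every LKO liver was below every control liver, at 39516 ± 1437 against 42605 ± 1100 (−0.11, adjusted p = 0.930, limma).

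The 12 PPARγ targets outside the droplet genes were split, 6 higher and 6 lower, with a median log2 fold change of −0.02 and 0 at an unadjusted p under 0.05 in limma. Fabp4, a fatty acid carrier of fat cells and macrophages, had 4050, 4355 and 3809 in control and 2404, 3149 and 4274 in LKO livers. LKO replicates 1 and 2 of Fabp4 were below every control liver and replicate 3 was within their range (log2 fold change −0.35, adjusted p = 0.899, limma). The value of Fabp4 was −0.15 without LKO replicate 1 and −0.56 without LKO replicate 3. Gyk, the kinase that returns glycerol to lipid synthesis, had 19576 ± 1888 and 16840 ± 2410 (SD, n = 3 each, −0.22, adjusted p = 0.899, limma), and Cd36, a fatty acid receptor, 33621 ± 731 and 31372 ± 2537 (−0.10, adjusted p = 0.960, limma). Without LKO replicate 2 these were −0.10 for Gyk and −0.05 for Cd36, without LKO replicate 1 Cd36 was −0.17, and without control replicate 3 Gyk was −0.14. Macrophages also hold Fabp4, Cd36 and Plin2. The 5 markers of lipid-associated macrophages were lower in mean log2 level in LKO livers, 2 of them (Gpnmb and Lgals3) at an unadjusted p under 0.05 in limma, with a summed level of 75365 to 87098 in control and 57933 to 85753 in LKO livers. Of the 7 general macrophage and Kupffer cell markers, 6 were higher, 4 of them (Adgre1, Clec4f, Timd4 and Marco) at an unadjusted p under 0.05, with a summed level of 50925 to 59159 in control and 56809 to 63308 in LKO livers. These 6 markers were named after their values were seen. Timd4 had 109, 218 and 124 in control and 628, 181 and 257 in LKO livers. Marco had 32.6, 87.4 and 23.4 in control and 794, 95.8 and 509 in LKO livers. Clec4f, Timd4 and Marco were highest in LKO replicate 1, and Adgre1 in LKO replicate 3. Over all genes 5.68% had an unadjusted p under 0.05, and 0 markers of either list passed the adjustment. The part of these cells in the droplet gene values was not tested.

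In the list of 22 PPAR receptors, partners and regulators, 14 were higher and 8 lower, and 0 passed limma over all genes. Srebf1, which encodes the regulator of fatty acid synthesis, was the member of smallest p, below every control liver in every LKO liver (log2 fold change −0.42, adjusted p = 0.548, limma). DESeq2 on the recovered reads called it, with an adjusted p of 0.0111. Cebpb, which switches on Pparg in fat cell formation, had 4835 ± 286 in control and 4162 ± 413 in LKO livers, with overlap (SD, n = 3 each, −0.22, adjusted p = 0.840, limma). Its relative Cebpd had 1166 ± 118 and 932 ± 267 (−0.36, adjusted p = 0.927, limma), and −0.10 without LKO replicate 1. Without that liver Cebpb was at −0.14.

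**Figure D5:**
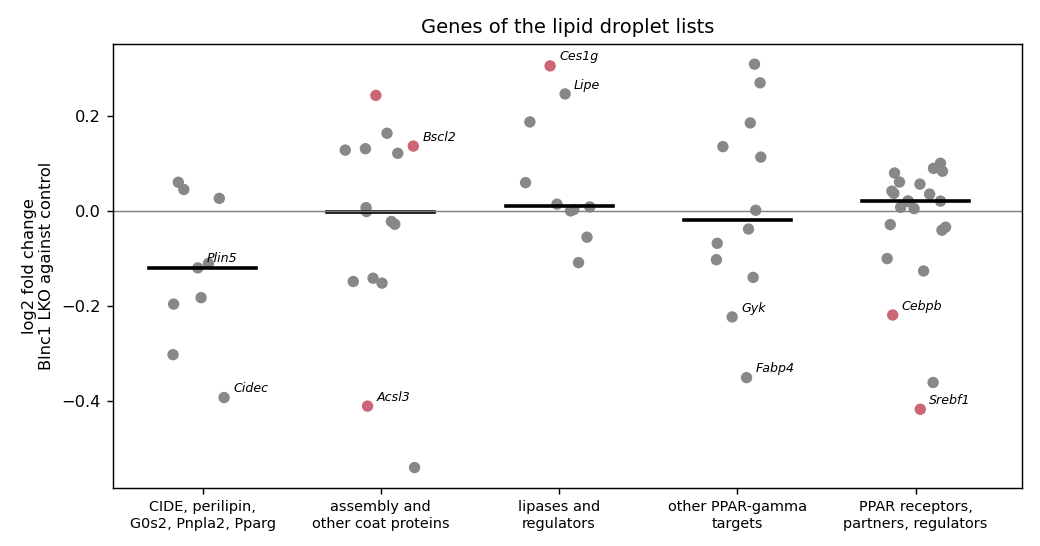
Log2 fold change of Blnc1 LKO against control of every tested gene in the droplet group and the 4 lists, 1 point a gene, with the median as a black line; red points have an unadjusted p under 0.05 in limma, and labels mark genes of smallest p. Medians of the 4 lists lie between −0.02 and 0.02, and that of the droplet genes at −0.12, where no point is red.

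The genes whose log2 levels followed Pparg most closely over the 6 livers, among 12479 genes with a mean value of at least 100, were Kmt2d (r = 0.992), Arhgap39 (0.989), Lcp1 (0.988), Dnajb14 (0.987) and Hist3h2a (0.985). Kmt2d encodes a histone methyltransferase and Lcp1 a leukocyte actin-bundling protein. For Cidec they were Atxn2l (r = 0.997), Csnk1d (0.996), Rnf44 (0.994), Dvl3 (0.992) and Ifi30 (0.991). These are descriptions over 6 points, in which LKO replicate 1 was low for both and LKO replicate 3 was high for Pparg. With the 2 livers farthest from the median left out, r was 0.44 (Hist3h2a) to 0.91 (Kmt2d) for the genes named with Pparg. For those named with Cidec it was then 0.83 (Ifi30) to 0.99 (Atxn2l). Over all 6 livers, 186 genes had an r above 0.9 with Pparg and 353 with Cidec. The genes alike to Cidec varied over a narrower range, as for Csnk1d, a casein kinase, with 6778 ± 64.7 in control and 6592 ± 307 in LKO livers (SD, n = 3 each).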

How the data were processed

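PolyA-selected liver RNA of 3 control and 3 Blnc1 LKO mice was sequenced. The authors used STAR (mm10), HTSeq and DESeq2, whose versions, annotation and filters are not given in the sources used here. The deposited signal is the HTSeq count scaled by the size factor of each liver. Columns named WT and KO were matched to control and LKO samples by number. All values (100%) were whole multiples of 1 read within 0.01, so reads (65384969 to 89350181 a liver) were recovered for alternatives. As these are not raw counts, limma 3.58.1 (R 4.3.3; lmFit, eBayes with trend) was fitted to log2(value + 1), which understates changes of low genes, over the 17297 genes that reached a value of 1 in 3 or more livers, two-sided, without covariates. Separate litters are not stated, so p-values measure the spread between these samples. Alternatives were edgeR 4.0.16 (quasi-likelihood), DESeq2 1.42.0 and voom on recovered reads, TMM or library size scaling, no trend, a pseudocount of 0.1, no filter, 10 reads in every liver, a replicate block, and each liver left out. Fits were tested on simulated data. Genes and lists were chosen with earlier results of these data known. Named genes were the 10, up to 3 of smallest p from each list, and the 5 most correlated with Pparg or Cidec. Also named were Ppara, for its ratio to Pparg, and some cell type markers, after their values were seen.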

Additional observations from a re-analysis of the deposited data

How the results depend on the processing

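None of the 9 droplet genes passed under any of the 16 alternatives (adjusted p from 0.554 to 1.00). Over all genes, limma called 1, edgeR 2, DESeq2 84 (45 higher, 39 lower), limma with no filter on low values 2, and limma with the replicate block 0. Leaving out each liver gave 0 to 13 calls (0 without control replicate 1, 3 without control replicate 2, 2 without LKO replicate 1, 13 without LKO replicate 2). In the 4 lists of other genes DESeq2 called 1, Srebf1, and every other fit 0. The replicate block changed no call among the droplet genes. Livers of the same number did not deviate together (correlations −0.058, −0.019 and −0.11), and no source says that the numbers pair the mice.

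With each liver left out, the lowest and highest log2 fold changes were −0.60 and −0.10 for Cidec, −0.61 and −0.01 for Cidea, −0.19 and −0.05 for Plin2, −0.30 and −0.01 for Plin4, −0.20 and −0.03 for Plin5, −0.40 and −0.03 for G0s2, and 0.02 and 0.14 for Pnpla2. That of Cideb ran from −0.013 to 0.090 (below 0 without LKO replicate 1) and that of Pparg from −0.068 to 0.12 (below 0 without LKO replicate 3). The log2 difference of the ratios ran from −0.66 to −0.085 for Cidec to Cideb and −0.43 to −0.098 for G0s2 to Pnpla2. It ran from −0.67 to 0.0070 for Cidea to Cideb, −0.040 to 0.053 for Plin2 to Plin5, −0.20 to 0.061 for Plin4 to Plin2 and −0.17 to 0.086 for Pparg to Ppara, and each of the last 4 changed sign without LKO replicate 1. The cause was not tested. Without control replicate 3, Plin2 to Plin5 was also below 0, at −0.039. As 1 of all genes passed limma, calls could hardly be lost, and the lack of calls says nothing about how stable the fold changes are. Depth does not limit the 9 genes, while Plin1 was below the limit that 3 reads set. With 3 livers a group, the 95% interval of Cidec reaches from a fold of 0.539 to 1.08 of the control level.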
